A study of Mus musculus with 39 samples.

Results

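The cytosolic ribosomal protein genes are described here in microglia of WT and 5XFAD mice after normoxia or chronic intermittent hypoxia. Members were all genes whose symbol was Rpl or Rps with a number and at most 1 letter, together with Rpsa, Rplp0, Rplp1 and Rplp2. Rps6k kinases, pseudogenes with the ending -ps and antisense genes were left out, and the rule uses symbols and no measured value. The rule found 83 of the 46333 genes in the female table and 83 of the 54532 genes in the male table. Of the 83, 51 carried large-subunit symbols (Rpl) and 32 small-subunit symbols (Rps, Rpsa included), the same in both tables. Among the 83, the annotation classes Rps4l as a transcribed processed pseudogene and Rpl6l and Rpl32l as processed pseudogenes, although their symbols meet the rule.

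Microglia were isolated from the cerebrum with magnetic beads against CD11b, a surface protein of myeloid cells, and their mRNA was sequenced in bulk. Female mice were studied at 10 months of age and male mice at 8 months, and the sexes were deposited as separate tables. WT dams (C57BL/6J) were bred to 5XFAD sires on a B6SJL background, per the study's methods. The 5XFAD mice carry human transgenes with familial Alzheimer's disease mutations, which the Thy1 promoter drives in neurons and not in the microglia that were sequenced. For chronic intermittent hypoxia (CIH), oxygen alternated between 6.5% and 21% over 90-s intervals for 8 h per day in the sleep period, per the submitters' design text, and in normoxia (NX) it stayed at 21%. The study's methods differ from that text, with a slightly lower oxygen level and a longer daily period. Exposure began at 4 months of age and lasted 6 months in females and 4 months in males. Each sex thus had 4 groups, WT and 5XFAD under either NX or CIH, with 5 libraries per group except 4 in female WT NX. Every group of a sex shares age, isolation and enzymatic dissociation, and sex cannot be told apart from age, exposure time and table. The study's methods call the samples independent, and p-values measure the spread between the libraries of a group.

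Ribosomal proteins fold around the ribosomal RNAs to form the small and the large subunit of the ribosome, the machine that translates mRNA. A cell needs them in nearly equal amounts, and their genes are known for moving together. Most of their mRNAs begin with a cytidine followed by a run of pyrimidines, the terminal oligopyrimidine (TOP) motif, through which mTOR signalling controls their translation. Microglia, the resident macrophages of the brain, are known to change state around amyloid plaques.

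The start sites of 10 members are shown to let the TOP motif be seen in members described below: some shown for their role or their p value (Rps6, Rpl27a, Rpl38, Rplp2), some counted very differently in the 2 tables (Rpl28, Rps10, Rpl13a), and a gene with its paralog and another paralog of low level (Rps27, Rps27l, Rpl39l). Each window holds 10 bases before and 20 from the annotated RefSeq start on GRCm38.p6, read 5′ to 3′ on the gene's strand. Capitals mark a run of pyrimidines that opens with C within 5 bases of the start and has at least 4 more pyrimidines after that C. The windows lie at chr4:86857348-86857377 (Rps6, minus strand), chr7:109519185-109519214 (Rpl27a, plus), chr11:114668570-114668599 (Rpl38, plus) and chr7:141447641-141447670 (Rplp2, plus). Those of Rpl28, Rps10 and Rpl13a lie at chr7:4792955-4792984 (plus), chr17:27635225-27635254 (minus) and chr7:45128726-45128755 (minus). Those of Rps27, Rps27l and Rpl39l lie at chr3:90213629-90213658 (minus), chr9:66946076-66946105 (plus) and chr16:10170218-10170247 (plus).
Rps6: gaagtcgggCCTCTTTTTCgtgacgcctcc
Rpl27a: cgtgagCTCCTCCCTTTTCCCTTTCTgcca
Rpl38: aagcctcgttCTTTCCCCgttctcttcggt
Rplp2: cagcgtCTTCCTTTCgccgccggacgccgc
Rpl28: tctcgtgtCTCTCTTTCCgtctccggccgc
Rps10: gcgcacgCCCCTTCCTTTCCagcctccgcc
Rpl13a: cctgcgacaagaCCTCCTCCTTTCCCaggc
Rps27: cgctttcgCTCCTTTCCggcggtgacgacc
Rps27l: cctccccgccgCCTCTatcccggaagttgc
Rpl39l: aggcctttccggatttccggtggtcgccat

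The run is 20 bases long in Rpl27a, 14 in Rpl13a, 13 in Rps10, 10 in Rps6 and Rpl28, 9 in Rplp2 and Rps27, and 8 in Rpl38. It is 5 bases in the window of Rps27l shown, and is not found by these letters in a second annotated start of Rps27l (chr9:66946403-66946432) or in the window of Rpl39l. RefSeq start windows were matched for 61 of the 83 members. A start run was found in 29 of these 61 (47.5%), against 21.2% of all 27025 genes with a window. The ETS core CCGGAAG, searched on both strands over 300 bases (250 before and 50 from the start), was found in 25 of 61 members (41%) against 9.93% of all genes. TATAAA was found in 7 members (11.5%) against 15.7%, and the YY1 motif AAGATGGC in 5 (8.2%) against 3.19%. These are matches of letters and not sites of binding.

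Libraries of females held 14731683 to 25906121 counts in all, and those of males 13457293 to 23095627. Summed CPM, counts scaled to a common library size, of 8 microglial markers were 25560 to 33180 in WT and 20450 to 25060 in 5XFAD libraries, so the labelled cell type was present throughout. Astrocyte markers (5 genes) summed to 3.43 to 73.7 CPM in WT and 19.6 to 916 CPM in 5XFAD, and border macrophage markers (4 genes) to 112 to 275 and 52.6 to 156 CPM. No marker of these lists was at 0 in every library of a group. In a principal component analysis without the members, the library labelled female 5XFAD NX replicate 4 lay among the WT libraries on the first component, and it had a count on 38551 genes where the other females had 21697 to 32221. Male 5XFAD NX replicates 4 and 5 lay apart from replicates 1 to 3. Shares, counts of DEGs, medians and the calls of members shown for their role are given with and without these libraries below. Other values, such as counts at the FDR alone and counts of members without overlap, are given with them.

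**Figure D1:**
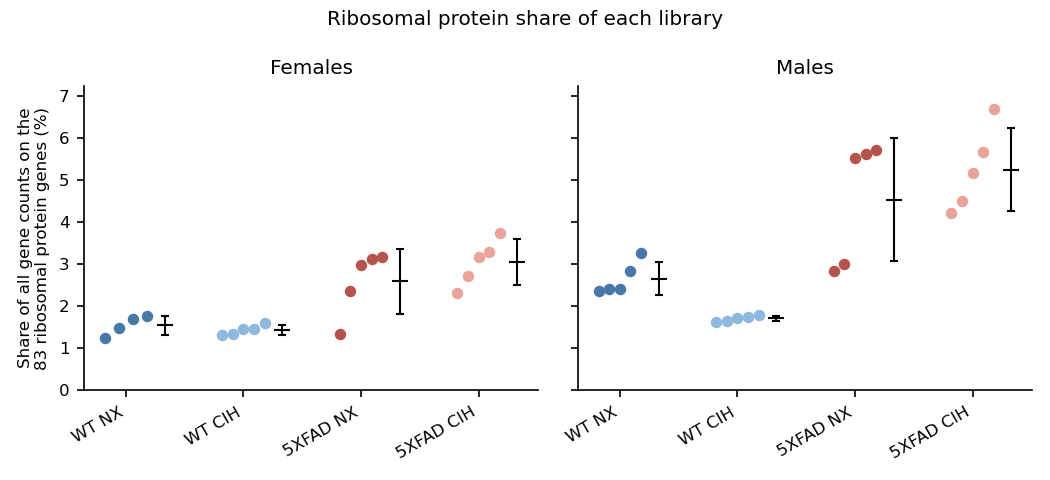
Share of all gene counts that fell on the 83 ribosomal protein genes (y axis, percent), 1 point per library, with mean and SD beside each group, females left and males right. The 5XFAD CIH libraries lie above every WT CIH library in both sexes, and 1 female and 2 male 5XFAD NX libraries lie near or within the range of WT.

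As a share of all gene counts, the members took 1.25% to 1.76% of the female WT NX libraries (1.54% ± 0.232, SD, n = 4) and 1.31% to 1.6% of the WT CIH libraries (1.43% ± 0.119, n = 5). Female 5XFAD NX libraries 1 to 5 held 3.11%, 3.16%, 2.35%, 1.33% and 2.98% (2.59% ± 0.772), and female 5XFAD CIH libraries held 3.74%, 2.72%, 2.32%, 3.27% and 3.16% (3.04% ± 0.543). Replicate 4 of 5XFAD NX fell inside the WT range and all other 5XFAD libraries lay above it. Without replicate 4 the female 5XFAD NX mean was 2.9% ± 0.376.

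Male WT NX libraries held 2.35% to 3.26% (2.65% ± 0.39), and the 5 male WT CIH libraries lay in a narrow band of 1.63% to 1.79% (1.71% ± 0.0668), below every WT NX library. Male 5XFAD NX libraries 1 to 5 held 5.51%, 5.7%, 5.61%, 3.01% and 2.84% (4.54% ± 1.47), so replicates 4 and 5 lay within the WT NX range and the other 3 far above it, at 5.61% ± 0.094 on their own. Male 5XFAD CIH libraries held 4.5%, 4.21%, 5.16%, 5.66% and 6.7% (5.25% ± 0.99). The ratio of group means, 5XFAD over WT, was 1.68 under NX and 2.12 under CIH in females, and 1.71 and 3.08 in males. CIH over NX was 0.93 in female WT, 1.18 in female 5XFAD, 0.644 in male WT and 1.16 in male 5XFAD. Without female 5XFAD NX replicate 4 the female ratios became 1.88 for genotype under NX and 1.05 for CIH in 5XFAD. Without male 5XFAD NX replicates 4 and 5 the male ratios became 2.12 and 0.936, so that the direction for CIH in male 5XFAD turned. No test was run on the summed share. In bulk libraries a shift in the cells that were isolated and a shift in RNA per cell cannot be told apart.

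Counts on Rpl genes stood to counts on Rps genes at 1.55 to 1.65 in every female library and 1.39 to 1.46 in every male library, while the share itself ranged from 1.25% to 6.7%. Within each table the proportion of large- to small-subunit counts was thus nearly constant.

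Each pair of groups was tested over all genes above 1 CPM in at least 3 of its libraries, with edgeR's quasi-likelihood test. Genes were called differentially expressed (DEGs) at an FDR (Benjamini-Hochberg) under 0.05 with a log2 fold change (log2FC) beyond 1 in either direction, and a log2FC is the second group over the first. In females 79 members were tested, all but Rpl10l, Rpl28, Rpl32l and Rpl3l. In males 80 were tested, all but Rpl10l, Rpl32l and Rpl3l. The 4 comparisons of a sex share their groups, so the same libraries stand behind more than 1 of the values below.

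**Figure D2:**
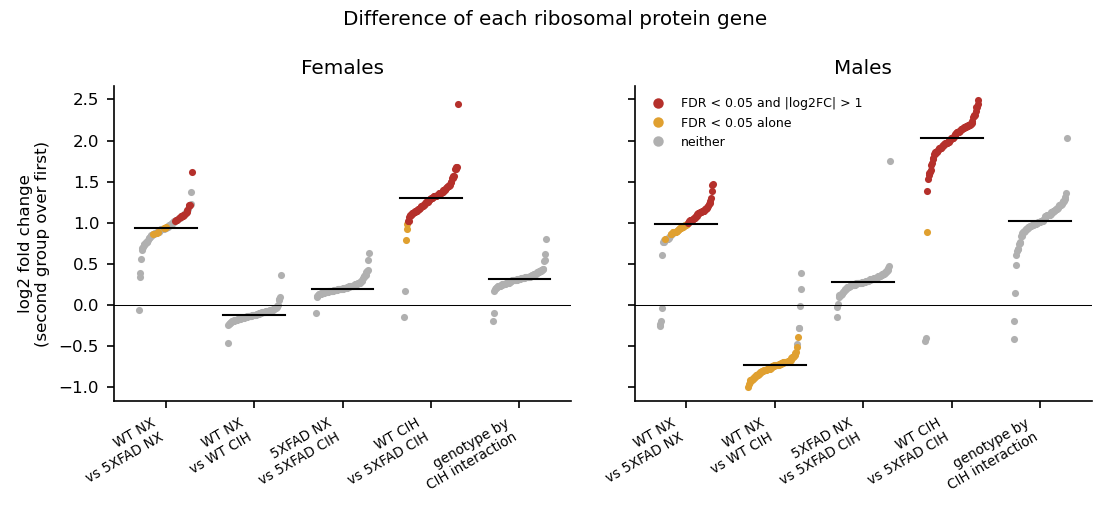
log2 fold change of each tested ribosomal protein gene (y axis), sorted within each comparison (x axis), females left and males right. Red points are DEGs, orange points have an FDR below 0.05 alone, grey points have neither, and the black line is the median. The last column is the CIH difference in 5XFAD minus that in WT. Most points are red in the comparison of genotypes under CIH, and most male points for CIH in WT are orange and below 0.

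Under NX, the median member was higher in 5XFAD than in WT microglia by slightly less than a doubling in both sexes, and fewer members passed the test in females than in males, a contrast that was not tested. In females 17 of 79 members were DEGs, all higher, against 4.4% of all genes tested that were DEGs and higher, and 23 were higher at the FDR alone, against 7.26% of all genes. Their median log2FC was 0.94 against -0.02 over all genes, and 78 of 79 lay above 0, between -0.06 for Rps4l and 1.62 for Rpl21. In no member did every 5XFAD NX library, replicate 4 included, lie above every WT NX library, a separation that 3.22% of all genes showed. In males 38 of 80 members were DEGs, all higher (5.94% of all genes), 62 were higher at the FDR alone (10.4%), and the median was 0.98 against 0.02 over all genes. In 11 of the 80 every 5XFAD NX library lay above every WT NX library (8.56% of all genes). In the same male groups oligodendrocyte markers (5 genes, 3 of them DEGs and higher) summed to 120 to 230 CPM in WT NX and 217 to 496 CPM in 5XFAD NX, and astrocyte markers (3 of 5 DEGs, higher) to 3.42 to 38.5 and 262 to 916 CPM. In females astrocyte markers (1 of 5 a DEG) summed to 19.7 to 53.3 and 19.6 to 252 CPM. Border macrophage markers were DEGs and lower in 4 of 4 in females and 3 of 4 in males. Mitochondrially encoded genes took 1% to 1.24% of counts in female WT NX and 1.23% to 1.46% in 5XFAD NX, and 1.25% to 1.71% and 1.69% to 2.4% in males. The part of these in the member values was not tested.

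The acidic stalk proteins Rplp0, Rplp1 and Rplp2 form the flexible arm of the large subunit that recruits elongation factors. Rplp1, at chr9:61913284-61914542 on the minus strand, stood at 570, 394, 642 and 526 normalised CPM in female WT NX libraries 1 to 4 and at 1146, 1259, 870, 397 and 1153 in 5XFAD NX libraries 1 to 5. All but replicate 4 of 5XFAD lay above the WT libraries. The difference was 0.85 ± 0.30 (log2FC ± SE, FDR = 0.0797, edgeR) and did not pass, as for Rplp0 (1.06 ± 0.32, FDR = 0.0532), while Rplp2 passed the FDR (0.0492) with a log2FC of 0.95. Without 5XFAD NX replicate 4 all 3 were DEGs in females (1.04 for Rplp1, 1.26 for Rplp0 and 1.13 for Rplp2), and Rplp0 was a DEG by DESeq2, the likelihood ratio test, the fit over all 4 groups and without the filter as well (FDR 0.00382 to 0.0392). In males Rplp1 stood at 770, 790, 586, 1202 and 990 CPM in WT NX and at 2290, 2257, 2480, 996 and 915 in 5XFAD NX. Replicates 1 to 3 of 5XFAD were higher than every WT library, and replicates 4 and 5 were within the WT range. All 3 stalk genes were DEGs in males, with a log2FC of 1.04 ± 0.29 for Rplp1, 1.12 ± 0.23 for Rplp0 and 1.18 ± 0.32 for Rplp2 (edgeR FDR 0.0263, 0.00522 and 0.021). The male call of Rplp1 was lost without any 1 of WT NX replicates 1 to 3 or 5XFAD NX replicates 1 to 3 (FDR 0.0587 to 0.0708), and that of Rplp2 without WT NX replicates 1, 2 or 3 or 5XFAD NX replicates 2 or 3 (FDR 0.052 to 0.0596). Both were lost with limma.

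On the small subunit, Rpsa, which also serves as a laminin receptor precursor, was a DEG in both sexes (females 1.22 ± 0.32, edgeR FDR = 0.0397; males 1.27 ± 0.24, FDR = 0.00256). Its female values were 313, 192, 281 and 279 CPM in WT NX and 751, 840, 548, 233 and 728 CPM in 5XFAD NX. Its male values were 364, 396, 470, 510 and 484 CPM in WT NX and 1355, 1402, 1326, 642 and 625 CPM in 5XFAD NX. The male groups did not overlap, and in females replicate 4 of 5XFAD alone lay in the WT range. The female call was lost without any 1 of the other 8 libraries (FDR 0.0635 to 0.098). Rps6, the substrate of S6 kinases, had a log2FC of 0.95 ± 0.29 in females (edgeR FDR = 0.0541) and 0.96 ± 0.22 in males (FDR = 0.0092). Without 5XFAD NX replicate 4 it was a DEG in females (1.14, FDR = 0.000238), and without replicates 4 and 5 in males (1.29, FDR = 2.94e-07). Rps19, the gene most often mutated in Diamond-Blackfan anaemia, was a DEG in males (1.17 ± 0.29) and had a log2FC of 0.98 ± 0.32 in females (edgeR FDR 0.0146 and 0.0636). By DESeq2 Rps19 was a DEG in females (FDR = 0.0112), and its male call was lost with library size alone (0.931). Rps3, a protein of the mRNA entry channel, had 0.85 ± 0.29 and 0.89 ± 0.26 (edgeR FDR 0.0756 in females and 0.0325 in males). Without 5XFAD NX replicate 4 the female values were 1.18 for Rps19 and 1.04 for Rps3, both DEGs, and without replicates 4 and 5 the male Rps3 was a DEG (1.26). Rps27a, which is made as a fusion with ubiquitin, varied widely: 125, 118, 164, 182 and 246 CPM in male WT NX against 505, 808, 389, 315 and 167 CPM in 5XFAD NX (1.39 ± 0.35, edgeR FDR = 0.014).

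On the large subunit, Rpl5, which binds 5S rRNA together with Rpl11 and can hold back Mdm2, was a DEG in both sexes (females 1.10 ± 0.32, edgeR FDR = 0.0483; males 1.13 ± 0.21, FDR = 0.00256). Rpl11 itself had 0.88 ± 0.29 in females and 0.86 ± 0.26 in males (edgeR FDR 0.0643 and 0.0343), below the fold limit. Rpl10, a late-joining protein near the peptidyl transferase centre, had 0.92 ± 0.29 and 0.80 ± 0.24 (edgeR FDR 0.0617 and 0.0339). Rpl22, known from T cell development, had 0.84 ± 0.28 and 0.90 ± 0.23 (edgeR FDR 0.0707 and 0.0175). Rpl38, known for the translation of Hox mRNAs, had 1.12 ± 0.38 in females (edgeR FDR = 0.0759) and was a DEG in males at 1.17 ± 0.28 (FDR = 0.0117). Rpl38 was a DEG in females by DESeq2, the likelihood ratio test and the fit over all 4 groups (FDR 0.0158 to 0.0276). Its male call was lost with library size alone (0.931) and with the length trend removed (0.972). The female call of Rpl5 was lost without any 1 library other than 5XFAD NX replicate 4 (FDR 0.076 to 0.117). Without that replicate Rpl11 (1.07), Rpl10 (1.11), Rpl22 (1.03) and Rpl38 (1.35) were DEGs in females, and without replicates 4 and 5 Rpl11 (1.23), Rpl10 (1.15) and Rpl22 (1.25) were in males.

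The largest rise among female DEGs was that of Rpl21, a core protein of the large subunit, from 78.2, 33.8, 51.9 and 28.8 CPM in WT NX to 186, 167, 117, 56 and 218 CPM in 5XFAD NX (1.62 ± 0.41, edgeR FDR = 0.0352). It was followed by Rps27 (1.22 ± 0.36, FDR = 0.0493) and Rpsa. The call of Rps27 was lost without any 1 library other than 5XFAD NX replicate 4 (FDR 0.0751 to 0.12), and that of Rpl21 without any 1 other than that replicate or WT NX replicate 1 (FDR 0.061 to 0.0937). In males the largest were Rpl17 (1.48 ± 0.34, edgeR FDR = 0.00873), Rpl41, the shortest of the ribosomal proteins (1.45 ± 0.31, FDR = 0.00634), and Rps27a. Rpl41 stood at 217, 367, 390, 492 and 404 CPM in male WT NX and at 1376, 1324, 1380, 497 and 546 CPM in 5XFAD NX, and these groups did not overlap.

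The number of DEGs under NX depended on single libraries, and the member counts at the FDR alone given above are those with all libraries. Without female 5XFAD NX replicate 4, 64 of 78 members tested were DEGs and higher, beside 1013 of 14149 genes, and 44% of all genes passed the FDR where 13.9% did with all libraries. Without WT NX replicate 1 there was 1, and without any 1 of the other 7 female libraries there were 0, and the share of all genes that passed the FDR fell as well, to between 0.301% and 6.52%. The median log2FC over all 9 omissions stayed between 0.84 and 1.14. In males the count was 63 without 5XFAD NX replicate 4, 66 without replicate 5 and 75 of 79 without both, and 15 to 50 without any other 1 library, the lowest without 5XFAD NX replicate 3. Over all genes 33.5% passed the FDR without both and 14.1% to 19% without any 1 library, against 17.8% with all. The male median was 1.36 without replicates 4 and 5.

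For CIH in WT mice the median member was below 0 in both sexes, and the sexes were not tested against each other. In females no difference between WT NX and WT CIH passed the test: 0 of 79 were DEGs (0% of all genes), with edgeR, DESeq2 and the likelihood ratio test alike, and 1 had an unadjusted p below 0.05 (3.87% of all genes). The female median was -0.12, with 74 of 79 members below 0. Rpl27a had the smallest p, with 256, 188, 253 and 215 CPM in WT NX and 199, 184, 165, 201 and 217 CPM in WT CIH (-0.24 ± 0.10, edgeR FDR = 0.96). Rpl3 (-0.18 ± 0.08) and Rpsa (-0.23 ± 0.12) came next, and the farthest against the median was Rpl39l (0.37 ± 0.53), near the count floor.

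In male WT microglia the members were lower after CIH by less than a halving. There 74 of 80 members were lower at an FDR below 0.05 alone, against 15% of all genes, with a median log2FC of -0.73 against -0.01 over all genes. None passed the fold limit, so 0 of 80 were DEGs where 2.51% of all genes were. An unadjusted p below 0.05 was reached by 75 of the 80, against 39.8% of all genes. In 66 of the 80 every WT CIH library lay below every WT NX library (9.12% of all genes). In a fit over all 4 male groups, which share 1 estimate of the spread, 0 of the 80 passed the FDR, and 0 of all 14983 genes did, at a member median of -0.73.

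Rpl31 stood at 209, 204, 210, 295 and 242 CPM in male WT NX and at 129, 119, 112, 131 and 123 CPM in WT CIH (-0.92 ± 0.10, edgeR FDR = 0.000266). Rpl32 stood at 251, 221, 253, 333 and 279 against 158, 148, 141, 134 and 143 CPM (-0.89 ± 0.10, same FDR), and Rpl23 at 219, 209, 245, 292 and 286 against 147, 135, 142, 138 and 140 CPM (-0.83 ± 0.10). These 3 members of the large subunit had the smallest p and their groups lay wholly apart. Among the members shown for their roles, Rplp0 (-0.79 ± 0.10), Rplp1 (-0.67 ± 0.14), Rplp2 (-0.70 ± 0.12), Rpsa (-0.70 ± 0.10), Rps6 (-0.73 ± 0.09), Rps3 (-0.79 ± 0.10), Rpl5 (-0.63 ± 0.09), Rpl11 (-0.79 ± 0.10), Rpl10 (-0.80 ± 0.10), Rpl22 (-0.69 ± 0.08) and Rpl38 (-0.79 ± 0.12) lay close together, each with an edgeR FDR below the limit and with WT CIH wholly below WT NX. Rps27a (-0.28 ± 0.20, edgeR FDR = 0.329) and Rpl17 (-0.01 ± 0.22, FDR = 0.968), whose values spread widely within groups, did not pass. The member farthest against the median was Rpl24 (0.39 ± 0.37, FDR = 0.457), at 0.425 to 2.62 CPM in the male table.

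Neutrophil markers (4 genes, 3 of them DEGs and lower) summed to 138 to 770 CPM in male WT NX and to 69.9 to 185 CPM in male WT CIH, mitochondrially encoded genes took 1.25% to 1.71% and 0.965% to 1.2% of counts, and microglial markers 29140 to 33180 and 25560 to 30080 CPM. Astrocyte markers summed to 3.42 to 38.5 and 11.2 to 73.7 CPM (1 of 4 tested a DEG, higher) and oligodendrocyte markers to 120 to 230 and 123 to 199 CPM (1 of 5, higher). Their part in the lower member levels was not tested.

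In 5XFAD mice CIH gave no DEG among the members of either sex (0% of all genes in both), by edgeR, DESeq2 or the likelihood ratio test. An unadjusted p below 0.05 was reached by 0 of 79 in females (3.22% of all genes) and by 1 of 80 in males (3.3%), the low-count paralog Rpl39l. The medians were 0.20 in females and 0.28 in males, each above 0.00 and -0.01 over all genes. In females Rpl34 (0.41 ± 0.26) and Rps29 (0.63 ± 0.42) were among the members with the smallest p values, each with an edgeR FDR of 0.998. Rps29, a zinc-binding protein of the small subunit, stood at 232, 223, 128, 71.7 and 276 CPM in female 5XFAD NX and at 567, 294, 138, 230 and 200 CPM in 5XFAD CIH, and these ranges overlapped. In males Rpl37 had 0.45 ± 0.31 and Rpl28 0.40 ± 0.28 (edgeR FDR 0.995 for both), and Rps27a lay farthest against the median (-0.14 ± 0.36).

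The medians in 5XFAD followed the libraries that stood apart. Without female 5XFAD NX replicate 4 the female median was 0.0083, and without male 5XFAD NX replicates 4 and 5 the male median was -0.08, with 68 of 80 members below 0 and none a DEG. The direction of the CIH difference in male 5XFAD therefore turned with 2 libraries.

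Between the genotypes under CIH nearly every member was higher in 5XFAD. Whether this difference exceeds that under NX is the interaction, given further on. In females 74 of 79 members were DEGs, all higher in the transgenic group (8.83% of all genes), the median log2FC was 1.30 against -0.02 over all genes, and in 73 of 79 every 5XFAD library lay above every WT library (18.8% of all genes). In males 77 of 80 were DEGs and higher (11.8%), the median was 2.03, about a 4-fold difference, against -0.06 over all genes, and in 75 of 80 the groups did not overlap (19.4%). Leaving out 1 library at a time gave 66 to 75 DEGs in females and 76 to 78 in males. Astrocyte markers (5 genes) summed to 5.34 to 35 CPM in female WT CIH and 117 to 532 CPM in 5XFAD CIH, and to 11.2 to 73.7 and 123 to 531 CPM in males. Of the 5, 3 were DEGs and higher in females, and 1 was higher and 1 lower in males. Gfap made up most of the 5XFAD sums, at a mean of 238 CPM in females and 286 CPM in males against 0.7 and 0.734 CPM in WT, while the means of Gja1 were 2.28 in WT and 1.75 CPM in 5XFAD in females and 9.45 and 2.46 CPM in males. Oligodendrocyte markers summed to 88.1 to 249 and 158 to 373 CPM in females (1 of 4 tested a DEG, higher) and to 123 to 199 and 172 to 352 CPM in males (2 of 5, higher). Border macrophage markers summed to 119 to 253 and 57 to 109 CPM in females (4 of 4 DEGs, lower) and to 112 to 265 and 52.6 to 156 CPM in males (1 of 4). T cell markers (4 genes) summed to 0.257 to 1.03 and 2.79 to 7.26 CPM in males, with both tested genes DEGs and higher. Mitochondrially encoded genes took 0.828% to 1% of counts in female WT CIH and 1.21% to 1.73% in 5XFAD CIH, and 0.965% to 1.2% and 1.64% to 2.26% in males, without overlap. The part of these in the member values was not tested.

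Rplp0, the stalk base, stood at 401, 339, 362, 402 and 400 CPM in female WT CIH and at 1127, 870, 818, 1101 and 1121 CPM in 5XFAD CIH (1.42 ± 0.10, edgeR FDR = 1.21e-07). In males it stood at 474, 467, 438, 436 and 457 against 1613, 1505, 1711, 1852 and 2558 CPM (2.03 ± 0.13, FDR = 2.34e-08). The lowest 5XFAD library was above the highest WT library in both sexes. Rplp1 rose by 1.22 ± 0.13 and 1.98 ± 0.18 and Rplp2 by 1.32 ± 0.13 and 2.17 ± 0.16 in females and males.

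Rps6 stood at 287, 256, 239, 296 and 290 CPM in female WT CIH and at 745, 595, 508, 705 and 755 CPM in 5XFAD CIH (1.29 ± 0.11, edgeR FDR = 6.19e-07). In males it stood at 275, 257, 249, 232 and 256 against 803, 770, 888, 963 and 1139 CPM (1.85 ± 0.11, FDR = 1.31e-08). Again no library overlapped between genotypes. Rpsa rose by 1.65 ± 0.12 in females and 2.15 ± 0.12 in males, Rps3 by 1.20 ± 0.13 and 1.93 ± 0.14, and Rps19 by 1.40 ± 0.15 and 2.20 ± 0.16. Rps27a was a DEG in males (1.54 ± 0.25) and in females passed the FDR but not the fold limit (0.92 ± 0.23, edgeR FDR = 0.00442), which it passed without WT CIH replicate 1 (1.03) or 5XFAD CIH replicate 5 (1.05).

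Rpl32, another large-subunit member, gave 1 of the 3 largest male rises: 158, 148, 141, 134 and 143 CPM in WT CIH and 649, 594, 732, 809 and 1144 CPM in 5XFAD CIH (2.45 ± 0.15, edgeR FDR = 2.04e-08). Rpl41 (2.49 ± 0.22) and Rps28 (2.41 ± 0.20) were the others. In females the largest were Rpl21 (2.44 ± 0.23), Rps28 (1.68 ± 0.30) and Rpl38 (1.68 ± 0.26). Rps28, which sits near the exit of the mRNA channel, stood at 48, 33, 51.8, 48.2 and 71.5 CPM in female WT CIH and at 298, 162, 81.2, 134 and 122 CPM in 5XFAD CIH, so that the groups did not overlap although the 5XFAD libraries differed among themselves. Rpl5 rose by 1.46 ± 0.10 in females and 1.98 ± 0.14 in males, Rpl11 by 1.14 ± 0.15 and 1.95 ± 0.16, Rpl10 by 1.14 ± 0.10 and 1.90 ± 0.14, and Rpl22 by 1.14 ± 0.14 and 1.87 ± 0.15. The female rise of Rpl11 fell to 0.98, under the fold limit, without 5XFAD CIH replicate 1. With library size alone and with limma on either FPKM scale, female Rpl11, Rpl10 and Rpl22 stood under that limit (0.91 to 0.94). So did female Rps3 (0.986 to 0.997). With the length trend removed, female Rpl11 (0.965) and Rpl10 (0.902) did as well. Each still passed the FDR.

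Whether the CIH difference itself differed between genotypes was tested as an interaction over the 4 groups of a sex. No member was a DEG in either sex (0% of all genes in both). In females 0 of 79 had an unadjusted p below 0.05 (3.78% of all genes), and the median interaction was 0.32, or 0.131 without 5XFAD NX replicate 4. In males 73 of 80 had an unadjusted p below 0.05 (24.4% of all genes), the median was 1.02 against -0.04 over all genes, and the smallest edgeR FDR was 0.117. Rpl32 (1.25 ± 0.32), Rps25 (1.22 ± 0.32) and Rpl37 (1.36 ± 0.36) had the smallest p in males, each with an edgeR FDR of 0.117. Rpl34 (0.62 ± 0.31), Rpl21 (0.81 ± 0.47) and Rps27l (0.38 ± 0.26) had them in females (edgeR FDR = 0.952).

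The male interaction lay close to the FDR limit. DESeq2 called 40 members and 381 of all 15813 genes, and edgeR's likelihood ratio test 15 members and 175 genes. Without 5XFAD NX replicate 1 the quasi-likelihood test called 38 members and 478 of 15763 genes. Without 5XFAD NX replicates 4 and 5 it called 0, and the median was 0.63 with 77 of 80 members above 0.

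Compared per length, on the FPKM scale (fragments scaled to transcript length and library size), Rplp1 had the highest level of the members in both tables, with 1199 ± 238 FPKM in female WT NX (n = 4) and 1722 ± 458 FPKM in male WT NX (n = 5). In females Rpl10 (594 ± 84.3), Rps9 (576 ± 74.5), Rpl13a (491 ± 90.6) and Rps14 (468 ± 74) followed. In males Rps15 (613 ± 133), Rps29 (484 ± 158) and Rplp0 (468 ± 67.4) followed. Among these members, neighbours in the order lay within the SD of both, except Rps9 and Rpl13a in females, whose difference was within the SD of Rpl13a alone. Rplp1 stood apart from the second member by more than the SD in both.

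Over the 83 members the median FPKM of females was 226 under NX and 205 under CIH for WT, and 374 and 440 for 5XFAD. In males it was 140 and 82.2 for WT and 282 and 351 for 5XFAD. The 10 highest members made up 27.9% to 28.6% of the summed member FPKM in the 4 female groups and 36.2% to 36.5% in the 4 male groups. That share of the 10 highest stayed within a narrow range while the median level changed. The transcripts counted were short, with a median of 780 bases for members against 2981 for all genes tested in females and 1736 against 3851 in males, by the length each table uses. Female lengths were derived from counts and FPKM. The trend of each library's log2 CPM on gene length was removed in a further fit, tested with limma. It gave 2 DEGs in females and 19 in males between genotypes under NX. The medians were 0.81 and 0.85, against 0.94 and 0.98 by edgeR with the trend kept. The test changed along with the trend, so these counts do not show what length alone does.

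Libraries of a group moved their members together. In female 5XFAD NX, replicate 4 lay below the group mean in 77 of 78 members (median deviation -1.17 on the log2 scale), and replicate 5 lay above it in all 78. In male 5XFAD NX, replicates 4 and 5 lay below the mean in 79 and 77 of 79 members (-0.66 and -0.79). In male WT CIH the median deviations of the 5 libraries stayed between -0.08 and 0.09. The median coefficient of variation of a member within a group was 6.81% in male WT CIH, 18.7% in male WT NX, 28.4% in male 5XFAD CIH and 41.7% in male 5XFAD NX. In females it was 11.4% in WT CIH, 15.8% in WT NX, 21.2% in 5XFAD CIH and 37.1% in 5XFAD NX. Rpl17 and Rps27a were among the most variable members, at 54.7% and 55.2% in male 5XFAD NX.

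**Figure D3:**
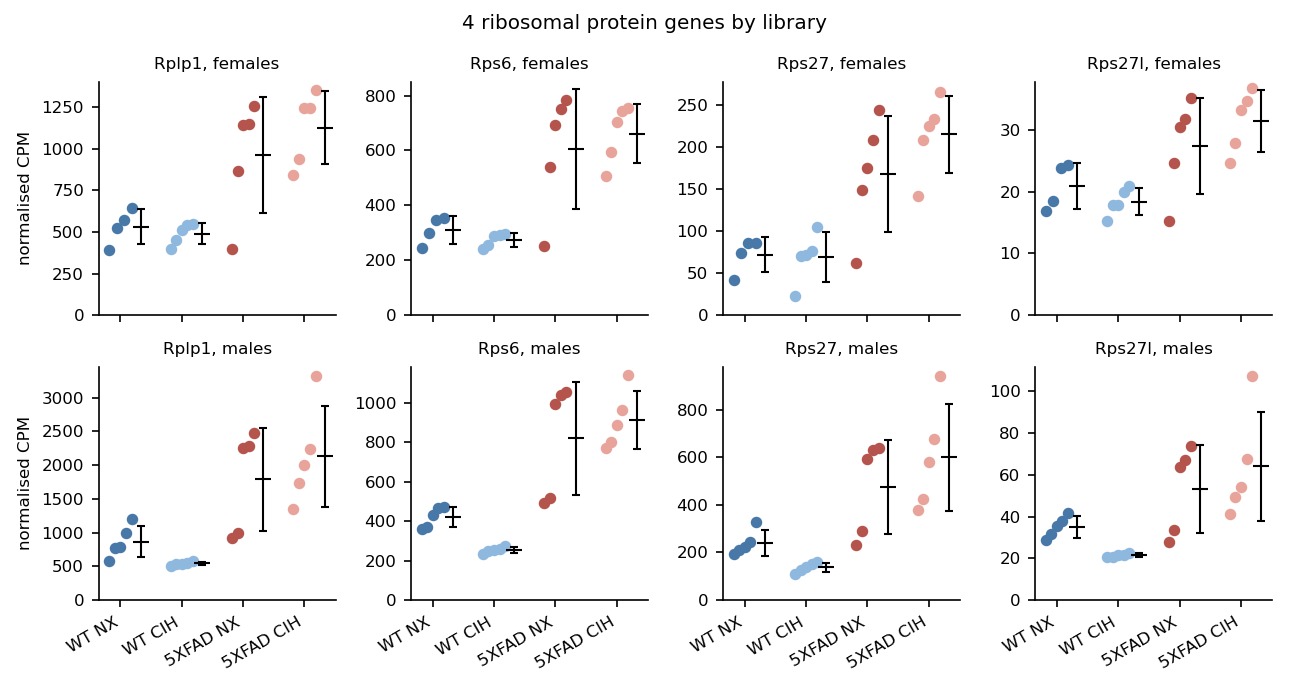
Normalised CPM (y axis, linear from 0, a scale for each panel) of Rplp1, Rps6, Rps27 and Rps27l by group, 1 point per library sorted by value, with mean and SD beside each group, females above and males below. Rplp1, Rps6 and Rps27 reach higher values in every 5XFAD CIH library than in any WT CIH library, and Rps27l follows at a lower level.

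Paralogs that the rule admits were compared with their parent genes. Rps27 and its p53-inducible paralog Rps27l both rose between genotypes in males under CIH, with 2.14 ± 0.21 (edgeR FDR = 1.66e-06) and 1.59 ± 0.20 (FDR = 2.1e-05). In females under CIH Rps27 was a DEG at 1.66 ± 0.29, and Rps27l passed the FDR at 0.79 ± 0.12 (FDR = 9.79e-05), below the fold limit. Rps27l stood at 17.9, 15.2, 17.9, 20 and 20.9 CPM in female WT CIH and at 36.8, 27.9, 24.6, 34.8 and 33.3 CPM in 5XFAD CIH, without overlap. The difference between the paralogs was not tested.

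Rps4x and Rps4l are given next, and their difference was not tested either. Rps4x, the X-linked small-subunit gene, rose by 1.25 ± 0.12 in females and 1.90 ± 0.12 in males between genotypes under CIH. Rps4l stood at 20, 22.8, 16.6 and 17.7 CPM in female WT NX, 19.1, 14.9, 19.1, 18.4 and 21.1 CPM in 5XFAD NX, 21.7, 14.3, 15.5, 23 and 21.2 CPM in WT CIH and 16.5, 19.9, 14.2, 18.7 and 16.6 CPM in 5XFAD CIH. All 4 female groups overlapped (log2FC -0.06 ± 0.13 under NX and -0.14 ± 0.14 under CIH), and it was the member farthest against the median in both. In male WT mice Rps4l was lower after CIH (log2FC -0.99 ± 0.13, edgeR FDR = 0.000272), from 31.5, 42.6, 40.2, 49.6 and 40.5 CPM to 16.6, 20.1, 24, 18.8 and 23.1 CPM, the lowest log2FC of all tested members. Rps4l passed the fold limit without WT NX replicate 1 (-1.08), WT CIH replicate 3 (-1.05) or WT CIH replicate 5 (-1.04), and at the limit itself without WT NX replicate 5. Between genotypes under CIH it passed the FDR in males at 0.89 ± 0.22 (FDR = 0.00426), and it was a DEG without 5XFAD CIH replicate 2 (1.05).

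Rpl39 rose between genotypes in all 4 comparisons (females 1.09 ± 0.30 under NX and 1.44 ± 0.19 under CIH; males 1.12 ± 0.26 and 2.07 ± 0.19). The female NX call of Rpl39 was lost without any 1 library other than 5XFAD NX replicate 4 (FDR 0.0685 to 0.107), and the male one without 5XFAD NX replicate 3 (log2FC 0.997). Rpl39l, known from testis, stayed at 0.12 to 1.87 CPM in females and at 0.16 to 7.21 CPM in males. Its male DEG call under CIH (1.84 ± 0.65, edgeR FDR = 0.0287) rested on 5XFAD CIH replicate 5 at 7.21 CPM and was lost without it (1.10, FDR = 0.135) and without WT CIH replicate 1 (FDR = 0.0634) or replicate 4 (FDR = 0.0609). Rpl3 rose by 1.20 ± 0.11 and 1.61 ± 0.10 under CIH in females and males, and Rpl3l, the striated-muscle paralog, was at most 2.18 CPM in any library. Rpl10l, a testis paralog, was at most 0.53 CPM, and Rpl32l at most 1.05 CPM, too low for the test.

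A few members were counted at very different levels in the 2 tables. Rpl24 had a mean of 164 CPM over the female libraries and 1.78 CPM over the male libraries, Rpl13a 697 and 27.5 CPM, and Rps10 209 and 9.74 CPM. Rpl28 had 0.6 CPM in females and 319 CPM in males. In all, 61 of the 83 members lay within 2-fold of each other. The tables were deposited separately, and sex and table cannot be told apart. By GENCODE vM21 exons on GRCm38, 37 of the 83 members share at least 1 exonic base with another gene. Rpl24 shares 47% of its exonic bases on the same strand with Gm28037, Rpl13a 29.4% with Gm45713 and Rps10 20.6% with RPS10-NUDT3, and these 3 partners were at 0 in every male library. Rpl28 shares 9.95% with Ube2s on the opposite strand. The part of these overlaps in the levels was not tested.

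The members behaved differently within the tables too. Rpl13a stood at 14.1, 13.4, 13.1, 13.6 and 15.8 CPM in male WT CIH and at 33.8, 35.6, 38.7, 43.5 and 61.6 CPM in 5XFAD CIH (1.62 ± 0.16, edgeR FDR = 1.23e-06), so it moved with the other members at its low level. Rps10 stood at 12.5, 11.7, 11.8, 12.3 and 9.59 against 9.12, 6.24, 10.4, 11.7 and 5.97 CPM in the same groups (-0.40 ± 0.19, FDR = 0.101), and Rpl24 had -0.44 ± 0.40 (FDR = 0.383). In females all 3 were DEGs in this comparison (Rpl13a 1.18 ± 0.15, Rps10 1.20 ± 0.14, Rpl24 1.17 ± 0.14). Rpl28 was a DEG in the male table (2.11 ± 0.17). Rpl24, Rps10 and Rps4l were thus the tested male members that were not DEGs under CIH.

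Members with and without a pyrimidine run at the annotated start differed little. Between genotypes under CIH the median log2FC was 1.29 with the run (n = 27) and 1.31 without it (n = 30) in females, and 2.06 (n = 28) and 2.03 (n = 30) in males. For CIH in male WT it was -0.73 and -0.75.

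**Figure D4:**
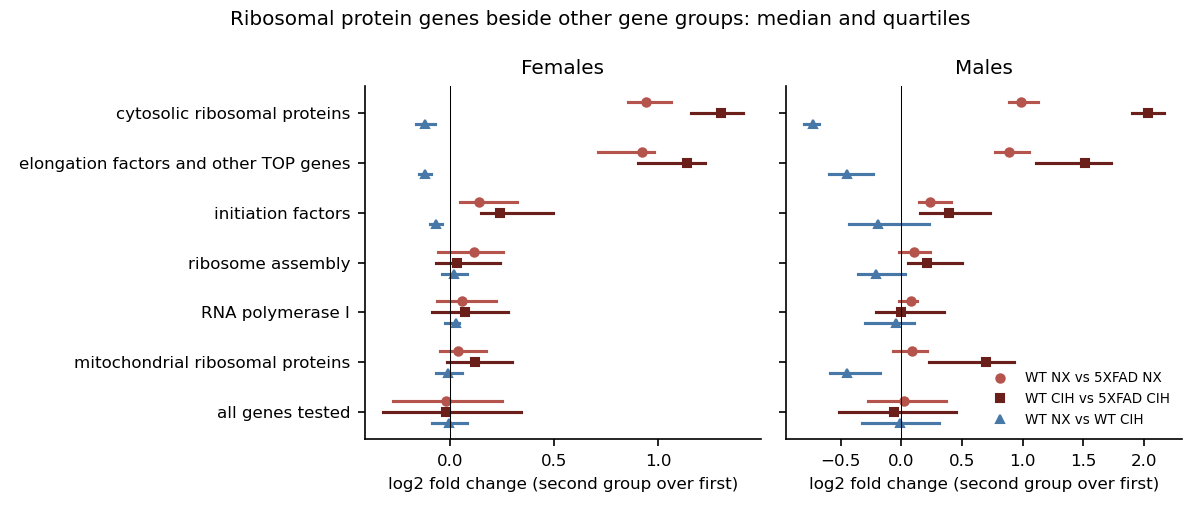
Median (symbol) and quartiles (line) of the log2 fold change of each gene group (y axis), with log2 fold change on the x axis, females left and males right, for 3 comparisons named in the key. Ribosomal protein genes and elongation factors lie to the right of 0 for both comparisons of genotypes and to the left for CIH in male WT, and the other groups lie nearer to 0 in the comparisons of genotypes, while mitochondrial ribosomal proteins lie about as far left as elongation factors for CIH in male WT.

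Other genes of translation, from lists chosen for their function, give the frame for these values. Elongation factors and other genes with TOP mRNAs (20 tested) had 13 DEGs and a median of 1.14 between genotypes under CIH in females, and 17 DEGs and 1.52 in males. Eef1a1, which brings aminoacyl-tRNA to the ribosome, rose by 1.56 ± 0.10 and 1.72 ± 0.08, and Rack1, a scaffold on the small subunit, by 1.23 ± 0.10 and 1.76 ± 0.11. For CIH in male WT their median was -0.45, with 15 of 20 lower at the FDR alone. Under NX they had 4 DEGs and a median of 0.92 in females and 6 DEGs and 0.88 in males.

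The remaining lists had lower medians than the members between genotypes under CIH, a description without a test of the difference. Counts are read against 8.83% of all genes in females and 11.8% in males that were DEGs and higher. Translation initiation factors (25) had 0 DEGs in females, with 15 higher at the FDR alone (26.2% of all genes) and a median of 0.24, and 3 DEGs with a median of 0.40 in males. Ribosome assembly factors (28) had 0 and 2 DEGs with medians of 0.03 and 0.21, and RNA polymerase I genes (9 tested) 0 and 1 with medians of 0.08 and -0.01. Mitochondrial ribosomal proteins had 0 DEGs of 78 in females (median 0.12) and 12 of 77 in males (0.69), and 38 of 77 were lower at the FDR alone after CIH in male WT (median -0.45). Regulators of ribosomal protein synthesis around mTOR and Myc (17) had 0 and 1 DEGs, with medians of 0.10 and 0.05, and integrated stress response genes (11) had 1 and 2, with medians of 0.06 and 0.07. Genes induced by tissue dissociation (14) had 1 and 2 DEGs with medians of 0.10 and 0.38. Dissociation genes also had medians of 0.48 (2 DEGs, 14 of 14 above 0) between female genotypes under NX, -0.52 between male genotypes under NX and 0.56 for CIH in male 5XFAD, and their part in the member values was not tested.

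Of 7 ribosomal proteins or their relatives that the symbols leave out, 3 were DEGs in females between genotypes under CIH (median 0.92) and 5 in males (1.29), and 1 lay below 0 in each sex. Fau, which is cleaved into the small-subunit protein eS30, rose by 1.27 ± 0.15 in females and 2.19 ± 0.16 in males between genotypes under CIH. Pseudogenes of ribosomal proteins, which share near-identical sequence and so can share reads with the members, had 38 DEGs of 51 tested in females and 75 of 80 in males, with medians of 1.22 and 2.00.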

How the data were processed

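Each library was made by the authors from mRNA of CD11b+ cells and sequenced in paired ends. Per the labels, reads were aligned with HISAT2 to GRCm38 (mm10), and the authors deposited whole-number counts per gene without normalization, beside FPKM values. The counting tool, its versions and its strand setting are not given in the sources used here. Female FPKM are scaled by the library total, and male FPKM by a library size that differs from it. Male gene lengths came from the male table. Female gene lengths were derived from counts, FPKM and library totals.

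Counts of 39 libraries were analysed in R 4.3.3 with edgeR 4.0.16 (TMM, quasi-likelihood F test, Benjamini-Hochberg), fitting the groups of each comparison alone (all 4 for the interaction) with genes above 1 CPM in at least 3 of their libraries. DEGs had FDR < 0.05 and |log2FC| > 1. SE is |log2FC| over the square root of F. Normalised CPM use TMM factors over all libraries of a sex. Alternatives were DESeq2 1.42.0, limma 3.58.1 on log2(FPKM + 1) and log2(FPKM + 0.1), other filters, scalings and fits, and each library left out. The script was tested on simulated data. Members and gene lists were chosen with earlier results of these data known. Genes were named in each comparison where they were among the 3 strongest DEGs in either direction (or, with fewer than 3 DEGs, had the 3 smallest p) or lay farthest against the median, together with members shown for their role and paralogs. A few items that this rule names are not reported here. No library of a group was a copy of another, as the lowest chi-square per gene among 76 replicate pairs was 5.56. Replicate numbers were not used as pairs. Correlations of same-numbered deviations ran from -0.49 to 0.35. They were not set against those of differently numbered libraries, so they cannot exclude a pairing.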

Additional observations from a re-analysis of the deposited data

Results flagged for a closer look

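Of 189 group values checked for a library far from the rest, 1 stood out. Rpl37, a zinc-binding protein of the large subunit, reached 271 normalised CPM in male WT NX replicate 4, while the other 4 libraries of that group had 163 to 194 CPM. The gap was 0.711 of the group's range. By the limit used, about 1 in 20 groups is expected to show such a gap by chance. The values checked share libraries, so the number flagged need not follow that rate.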

How the results depend on the processing

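No result changed its called direction under an alternative. Between female genotypes under NX, the 17 member DEGs became 2 with library size alone, 34 with DESeq2, 30 with no filter on low counts, 29 with the likelihood ratio test, 29 with all 4 groups in 1 fit, 1 with limma on either FPKM scale and 2 with the length trend removed, and 0 to 64 with 1 library left out. Between male genotypes under NX, the 38 became 6 with library size alone, 62 at the FDR alone, 20 with limma on either FPKM scale, 19 with the length trend removed, 75 without 5XFAD NX replicates 4 and 5 (chosen after seeing the data), and 15 to 66 with 1 library left out. A block on the replicate number gave 0 in females and 3 in males, but the libraries share only a number, and the pairing has no support in the labels. Between genotypes under CIH, limma on log2(FPKM + 1) gave 49 DEGs in females (74 by edgeR), and library size alone a male median of 1.64. For CIH in male WT, 74 members passed at the FDR alone and 0 to 4 were DEGs with 1 library left out, all lower. The male interaction gave 40 with DESeq2, 42 with no filter, 15 with the likelihood ratio test, and 0 to 38 with 1 library left out. The fit with the length trend removed was tested with limma. Member counts in this section stand without the share of all genes called under the same setting. They thus do not tell a change of the members from a change over all genes. Library size alone moved the median of all genes by -0.15 to -0.37 between genotypes and by -0.18 in the male interaction. Relative to that median, with library size alone, the members stood at 0.92 and 1.31 in females under NX and CIH, and at 0.91 and 2.07 in males. With no filter on low counts the median of all genes moved by -0.53 to 0.74, and in females under NX the members then stood 0.27 above it. At this depth Rpl10l, Rpl32l and Rpl3l were too low to be tested in either sex.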
